A study of Rattus norvegicus with 3 samples.

Results

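Collagens, laminins and the enzymes that modify the extracellular matrix were followed in RNA of rat adrenal medulla, with 7 days of exposure to cold set against 1 day. Members were the genes whose annotated symbol is Col, Lama, Lamb, Lamc, Mmp, Timp or Adamts followed by a digit, Lox or a Lox-like gene, or one of Fn1, Sparc, Nid1, Nid2, Dcn, Lum, Bgn, Dpt, Fbn1 and Eln. They came to 98 of the 14217 genes named on the array, read by 140 probe sets. Each gene was read by the probe set with the highest mean on the 7-day array and 1-day array b. Of the 98, 60 were kept by a filter on intensity, among 9398 genes kept in all.

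The series holds 1 array of 7 days of cold and 2 arrays of 1 day of cold, called a and b. The labels give the species, the tissue and the length of exposure, but no strain, sex or age. Unexposed rats were not analysed here. Whether arrays a and b stand for different rats is not stated, so their spread may be technical.

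The extracellular matrix is the protein scaffold around cells. Fibrillar collagens form its cables, and type IV collagen, laminins and nidogens form the basement membrane sheets under capillaries and around cell nests. Lysyl oxidases cross-link collagen and elastin, while matrix metalloproteinases and ADAMTS proteases cut matrix proteins and the TIMP proteins inhibit them. In the adrenal gland, fibroblasts, mural cells and endothelial cells are known sources of these proteins.

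One array stood apart before any comparison. For beta-actin the 3′ probe set exceeded the 5′ one, a ratio that is high in degraded or partly copied RNA, by 8.87 times on the 7-day array, 6.11 times on 1-day array b and 231 times on 1-day array a. Log2 differences over the 9398 genes kept had an SD of 0.32 between the 7-day array and 1-day array b and 1.24 between 1-day arrays a and b. Of the 60 matrix genes kept, 27 differed at least 2-fold within the 1-day pair, where 39.6% of all genes did. Results are therefore given against array b, with the main counts and most families and lists also set against array a. Many single genes are given against array b only. A count, median or log2 difference with no array named is against array b. Chromaffin cell markers were read on every array, with the catecholamine enzyme gene Th at 224786, 193597 and 79575 on the 7-day array, 1-day array b and 1-day array a. Adrenal cortex markers were read as well, with Cyp11b1, of corticosterone synthesis, at 49727 on the 7-day array against 33603 on 1-day array b and 2012 on 1-day array a, so the tissue labelled medulla also held cortical RNA. The chromaffin transporter gene Slc18a1 read 13681 on the 7-day array, 18040 on array b and 1390 on array a, below that array's median of 1583. Other markers were highest on array a. Chromaffin Dbh read 215877, 188289 and 543430 on the 7-day array, array b and array a, and cortical Star 277066, 208111 and 602316. Against array a, 6 of 12 chromaffin and 4 of 10 cortex markers were lower on the 7-day array.

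Most matrix genes read lower on the 7-day array than on 1-day array b, and the collagens read lower with a single exception. Of the 60 genes kept, 46 were lower (76.7%), where 51.9% of all genes kept were lower, and the median log2 difference was -0.24 against -0.01 for all genes. Among them, 21 of 22 collagens were lower (median -0.46), and 25 of the 38 other matrix genes (median -0.07). With all probe sets of a gene averaged, 19 of the 22 collagens were lower. With each array centred on its median, which moved the median of all genes by -0.18, 53 of 60 were lower, where 76.1% of all genes were. These values set 1 array against 1 array, so they carry no test, and in bulk tissue fewer cells of a type and less RNA per cell cannot be told apart.

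**Figure D1:**
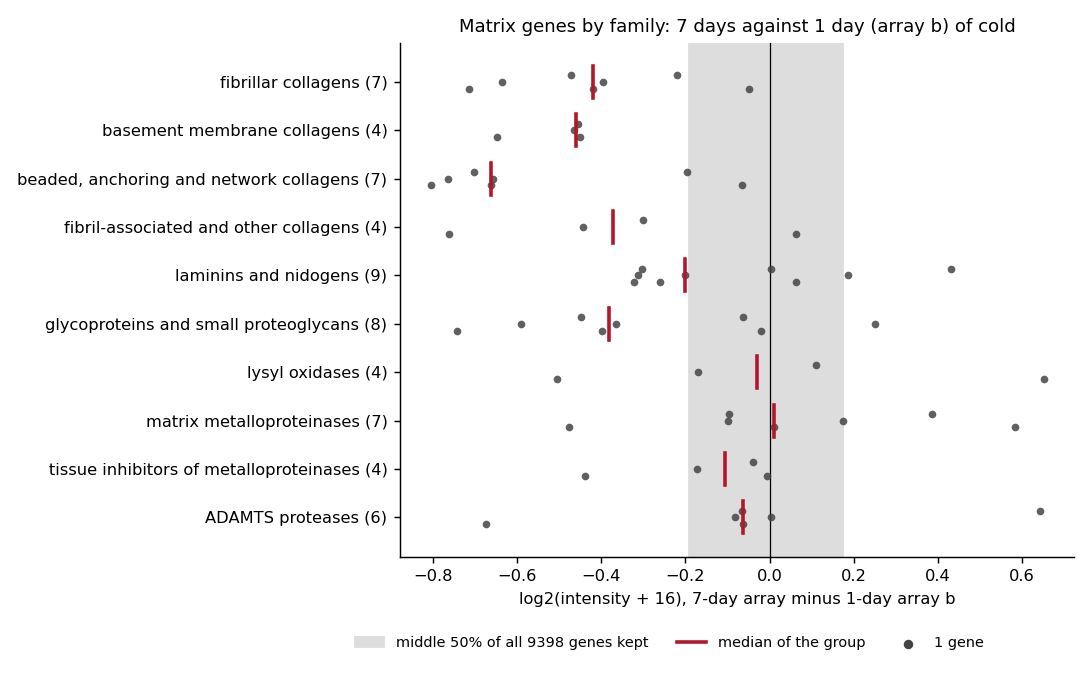
Log2 difference of the 7-day array minus 1-day array b for the 60 matrix genes kept, 1 point per gene, by family with the number of genes in brackets. The red bar is the family median and the grey band the middle 50% of all 9398 genes kept. The 4 collagen families have medians from -0.66 to -0.37, left of the band, while the metalloproteinases, lysyl oxidases and ADAMTS proteases are centred near 0. The medians of the glycoproteins and small proteoglycans (-0.38) and of the laminins and nidogens (-0.20) also lie left of the band.

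No gene passed a test against both 1-day arrays. In limma, fitted on 15521 probe sets with both 1-day arrays and adjusted by Benjamini-Hochberg, 0 were called (0%). The smallest adjusted p was 1.00, and 74 probe sets fell under 0.05 before adjustment. Of the 60 matrix genes, 0 were called and 0 had an unadjusted p under 0.05. The smallest belonged to Lox, with a log2 difference of 1.43 ± 0.94 (SE) from the mean of the 1-day arrays. That SE comes from a spread fitted over all probe sets at like intensity. Only the 1-day pair feeds this spread, with 1 residual degree of freedom per probe set. Over the 60 matrix genes the SE ran from 0.92 to 2.10, while the largest difference from array b was -0.80. The test could not call differences of that size, so the lack of calls says little about them.

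By size, 0 of 60 matrix genes lay at least 2-fold from 1-day array b in either direction, where 0.447% of all genes were at least 2-fold lower and 0.511% at least 2-fold higher. Likewise 0 lay at least 2-fold beyond both 1-day arrays, where 0.16% of all genes lay below and 0.0958% above. At a limit of 1.5-fold, 12 matrix genes were lower and 2 higher than on 1-day array b, where 3.39% of all genes were lower and 3.39% higher. The 12 included 9 collagens. These counts became 6 lower and 1 higher with quantile normalisation (2.20% and 1.77% of all genes) and 22 lower and 0 higher with median centring (9.04% and 1.55%). With probe sets averaged they became 8 lower and 1 higher (4.76% and 6.31% of all genes).

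With both 1-day arrays used, 24 of the 60 read below both on the 7-day array and 5 above both, where 22.9% of all genes lay below both and 27.4% above both. The split was 18 below and 9 above with quantile normalisation, where 19.1% and 30.7% of all genes lay so. It was 10 below and 7 above with median centring, where 6.69% and 21.3% did. Among the 22 collagens, 11 lay below both and 0 above both. Against 1-day array a alone, 33 of 60 matrix genes were lower, where 43.7% of all genes were lower, and 12 of 22 collagens were lower. The count of 33 became 24 with quantile normalisation and 10 with median centring, where 38.4% and 9.30% of all genes were lower, so it went with the shift of all genes. The lower collagen values were thus a difference from array b, and array a gave no common direction.

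The promoters of the genes are shown for a pair that lie head to head and for genes that read apart from each other. Col4a1 and Col4a2 encode the chains that join in the main type IV collagen molecule, and start on opposite strands of chromosome 16 at positions 77 bases apart in RefSeq's GRCr8 build, so that their windows share 176 bases. Col1a2 encodes a chain of type I collagen, and Nid1 encodes nidogen-1, which links laminin to type IV collagen and read higher at 7 days. Each window runs from 250 bases before to 50 after the annotated start in the gene's own direction, 5′ to 3′. In Col1a2 the 50 bases after that start open with atg, so the start may be that of translation. Capitals mark letters that match the CCAAT box, the TATA box (searched as TATAAA) and the GC box (searched as GGGCGG). Each was searched on both strands, and none overlaps another here. Whether the TATAAA of Col1a2 lies where a TATA box would act was not tested.
Col4a1, chr16:84885347-84885646, plus strand: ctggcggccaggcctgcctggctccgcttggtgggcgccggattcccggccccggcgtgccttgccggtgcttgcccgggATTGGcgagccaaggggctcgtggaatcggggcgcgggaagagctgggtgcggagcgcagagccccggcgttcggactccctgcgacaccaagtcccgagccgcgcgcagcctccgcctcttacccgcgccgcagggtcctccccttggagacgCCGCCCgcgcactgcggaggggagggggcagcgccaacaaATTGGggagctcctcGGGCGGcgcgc
Col4a2, chr16:84885471-84885770, minus strand: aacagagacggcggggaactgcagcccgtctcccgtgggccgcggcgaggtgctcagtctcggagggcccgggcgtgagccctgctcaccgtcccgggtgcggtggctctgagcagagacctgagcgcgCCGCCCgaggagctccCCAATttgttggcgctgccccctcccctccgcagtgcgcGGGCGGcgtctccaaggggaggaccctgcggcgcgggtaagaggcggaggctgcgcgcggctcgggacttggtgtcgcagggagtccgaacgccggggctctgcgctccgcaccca
Col1a2, chr4:33518307-33518606, plus strand: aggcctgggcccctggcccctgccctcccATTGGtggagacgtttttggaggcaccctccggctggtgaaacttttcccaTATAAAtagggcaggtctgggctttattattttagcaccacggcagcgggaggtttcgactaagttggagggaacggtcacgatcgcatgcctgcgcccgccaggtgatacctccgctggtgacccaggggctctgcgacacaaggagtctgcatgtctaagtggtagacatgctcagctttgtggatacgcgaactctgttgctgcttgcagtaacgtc
Nid1, chr17:93069036-93069335, plus strand: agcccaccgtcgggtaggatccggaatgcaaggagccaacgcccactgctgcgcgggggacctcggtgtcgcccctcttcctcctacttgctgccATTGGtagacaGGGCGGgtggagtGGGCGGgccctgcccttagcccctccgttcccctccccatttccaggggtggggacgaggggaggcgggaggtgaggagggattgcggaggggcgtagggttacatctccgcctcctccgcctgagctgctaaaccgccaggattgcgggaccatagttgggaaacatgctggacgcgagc

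The Col4a1 window held 2 CCAAT and 2 GGGCGG matches, and the Col4a2 window 1 and 2, of which 3 lie in the shared stretch of both. Col1a2 held 1 CCAAT and 1 TATAAA, and Nid1 held 1 CCAAT and 2 GGGCGG. RefSeq promoters were at hand for 70 of the 98 genes and 42 of the 60 kept. Of those 42, 27 held GGGCGG (64.3%), against 34.9% of the 27457 promoters in the table. CCAAT was in 12 of 42 (28.6%, against 37.7% of all) and TATAAA in 7 of 42 (16.7%, against 14.3%). These sets are unlike, since the 42 genes passed the filter on intensity and the 27457 promoters were not filtered. The matches describe letters in these windows and no binding was measured.

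Fibrillar collagens, which make the tensile cables of connective tissue, were all lower than on 1-day array b among the 7 kept, with a median of -0.42 that stayed negative with quantile normalisation (-0.37), median centring (-0.60) and removal of an intensity trend (-0.40). From array a the median was 0.66, with 3 of the 7 lower. Col3a1, of type III collagen in vessel walls and reticular fibres, read 12242 on the 7-day array, 16363 on 1-day array b and 2031 on 1-day array a. Col1a2 read 9794 on the 7-day array, against 12898 on array b and 2114 on array a. Both genes therefore lay between the 1-day arrays, -0.42 and -0.40 below array b on the log2 scale and 2.58 and 2.20 above array a.

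Col1a1, which pairs with Col1a2 in type I collagen, read 3467 on the 7-day array, against 4816 on array b and 3726 on array a, below both. Type V collagen starts and thins fibrils, and its gene Col5a1 read 2070 at 7 days against 3224 on array b and 471 on array a (-0.64 from array b), while Col5a2 stood at -0.22. Col11a1, of a minor fibrillar type related to type V, read 1593 at 7 days and 2623 and 4942 on arrays b and a, below both by -0.71 and -1.62. Col27a1 was the closest to array b, at -0.05.

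Basement membrane collagens were all lower on the 7-day array than on 1-day array b in the 4 genes kept, with a median of -0.46. From array a the median was 1.28, with 1 of the 4 lower. Col4a1 read 14394 on the 7-day array, 22561 on 1-day array b and 10256 on 1-day array a, a difference of -0.65 from array b and 0.49 from array a. Its head-to-head partner Col4a2 read 7142 at 7 days, against 9760 and 1697 on arrays b and a, -0.45 from array b and 2.06 from array a. The pair, whose shared promoter stretch is printed above, thus stood on the same side of each 1-day array. Col1a2, Col3a1 and Col18a1 also lay below array b and above array a, so this was not particular to the pair. The part of the shared stretch was not tested. Col4a5, of a type IV network in which other chains replace these, lay just below both 1-day arrays, at 1942 against 2668 and 2020. Col18a1, whose product carries endostatin, read 3803 at 7 days, 5249 on array b and 648 on array a.

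The beaded, anchoring and network collagens had the lowest family median, -0.66 over 7 genes, with 5 of them at least 1.5-fold below array b. From array a the median was -0.22, with 5 of the 7 lower. Type VI collagen forms beaded filaments next to basement membranes. Col6a2 had the lowest difference of all 60 matrix genes kept, -0.80 (0.573 of its level on array b), with 1813 on the 7-day array against 3179 and 2737 on arrays b and a. Col6a1 read 4199 at 7 days against 6654 and 2140, and Col6a3 read 3752 against 6118 and 2712. These 3 type VI genes stood at -0.66 to -0.80 from array b, Col6a2 also read below array a, and another, Col6a6, stood at -0.19. With all its probe sets averaged, a dim one included, Col6a3 turned to 0.58.

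Col7a1, of the anchoring fibrils under epithelia, read 12451 on the 7-day array, 19638 on array b and 13807 on array a, below both. Col8a1 and Col8a2 encode chains of a short network collagen made by vessel cells. Col8a1 read 1352 at 7 days, against 2306 and 3550, while Col8a2 stood at -0.07 from array b. Among fibril-associated and membrane collagens, Col14a1 read 1566 against 2663 and 3266 (-0.76 from array b), Col12a1 stood at -0.44 (0.36 with probe sets averaged) and Col13a1 at -0.30. Col16a1 was the exception among the 22 collagens, at 2322 on the 7-day array and 2221 on array b (0.06), and this small excess turned to -0.12 with median centring.

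**Figure D2:**
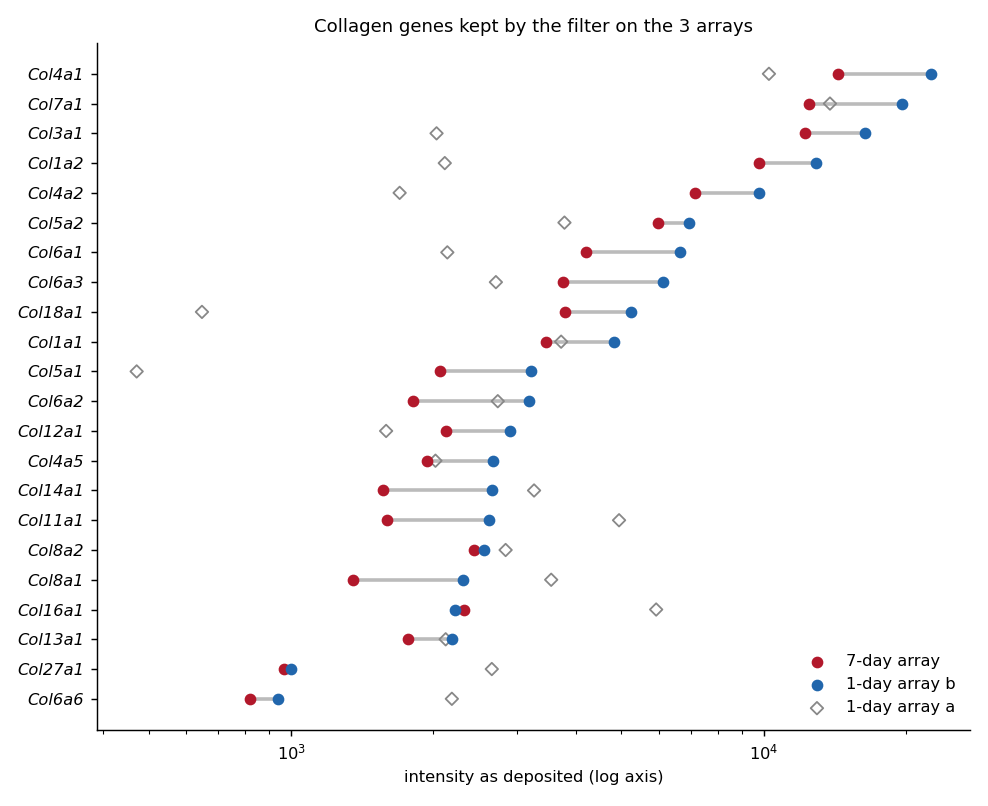
Intensity as deposited (log axis) of the 22 collagen genes kept, with the 7-day array in red, 1-day array b in blue and 1-day array a as open diamonds, ordered by array b. Red points lie left of blue ones in every row but Col16a1, while the diamonds lie far left for several bright collagens such as Col3a1 and Col18a1 and right for dimmer ones such as Col11a1.

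Laminins and nidogens read on either side of array b, with 5 of 9 lower than on array b, a median of -0.20 and 0 at least 1.5-fold apart. From array a the median was 0.42, with 3 of the 9 lower. Laminin chains assemble as trimers of an alpha, a beta and a gamma chain. Lamb1, a beta chain, read 15488 on the 7-day array, 13608 on array b and 9086 on array a (0.19 from array b), and its partner Lamc1 read 5253 against 6041 and 2836 (-0.20). The alpha chain genes Lama2 and Lama4 stood at -0.26 and -0.30. Lama5 (0.00) and Lamb2 (0.06) were level with array b, and both turned negative with median centring. Lamc3 stood at -0.32.

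The nidogens bridge the laminin and type IV collagen networks, and their genes differed in sign. Nid1 read 68039 on the 7-day array, against 50468 on 1-day array b and 37174 on 1-day array a, above both, by 0.43 over array b. Nid1 remained above array b with quantile normalisation (0.34), median centring (0.25) and the intensity trend removed (0.33). Its second probe set read 1877 at 7 days, against 1574 on array b (0.25) and 3064 on array a (-0.70). That probe set thus lay between the 1-day arrays and not above both. Nid2 read 1538 at 7 days, against 1914 and 1145 (-0.31 from array b). Type IV collagen genes and Nid1, parts of the same sheet, therefore lay on opposite sides of array b.

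Among the matrix glycoproteins and small proteoglycans 7 of 8 were lower than on array b, with a median of -0.38. From array a the median was 0.53, with 4 of the 8 lower. Sparc, a collagen-binding protein, read 30730 on the 7-day array, against 39552 and 9812 on arrays b and a (-0.36 from array b), and Fbn1, of elastic microfibrils, read 2009 against 2745 and 178 (-0.45). Dpt, which encodes dermatopontin, read 1450 against 2436 and 4680 (-0.74), while its second probe set stood at 0.20, in the opposite direction. The proteoglycans that regulate fibril growth differed from each other in the values as deposited, and less so with quantile normalisation. Bgn (biglycan) read 5315 at 7 days, against 8007 on array b and 2477 on array a (-0.59), Lum (lumican) stood at -0.40, and Dcn (decorin) read 99376 against 103757 and 19993 (-0.06). With quantile normalisation Bgn, Lum and Dcn stood at -0.49, -0.46 and -0.35 from array b. Dcn stood at -0.24 with median centring and -0.21 with the intensity trend removed. Fn1 (fibronectin) stood at -0.02, turning to 0.00 with quantile normalisation, and Eln (elastin) at 0.25.

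The lysyl oxidases were split. Lox read 22271 on the 7-day array, 14175 on 1-day array b and 4826 on 1-day array a, above both and by 0.65 over array b, the highest difference of the 60. A second Lox probe set, at 9695 on the 7-day array and 9918 on array b, showed none of that excess (-0.03), so the value rests on 1 probe set. Loxl1, needed for elastic fibres, read 3230 against 4586 and 5165 (-0.50), below both. Loxl2 and Loxl3 stood at 0.11 and -0.17, and Loxl2 turned to -0.07 with median centring.

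Matrix metalloproteinases had a median of 0.01 over the 7 kept, with 3 lower than on array b and 4 higher, and of -0.17 with median centring. From array a the median was -0.29, with 6 of the 7 lower. Mmp2, a gelatinase, read 2080 on the 7-day array, 1384 on array b and 2543 on array a (0.58 from array b), between the 1-day arrays, and turned to -0.30 with its dim second probe set averaged in. Mmp14, a membrane protease that activates pro-MMP2, read 4293 against 5982 and 4605 (-0.48), while its second probe set read 1099 against 687 and 3575 (0.67), in the opposite direction. Mmp19 stood at 0.38, Mmp24 at 0.18, Mmp17 at 0.01, Mmp15 at -0.10 and Mmp23 at -0.10, the last turning to 0.30 with probe sets averaged. The values for Mmp24 and Mmp17 turned slightly negative with median centring. Mmp9, the other gelatinase, was below the filter at 145 on the 7-day array and 191 on array b.

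The inhibitors lay close to array b apart from Timp2. Timp3, which binds the matrix, read 72870 on the 7-day array, 73138 on array b and 14877 on array a (-0.01), and Timp1 read 25832 against 26557 and 7945 (-0.04). Timp2, an inhibitor that also takes part in MMP2 activation, read 6266 against 8503 and 7900 (-0.44), below both, and a second probe set gave -0.54. Timp4 stood at -0.17.

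ADAMTS proteases cut proteoglycans such as aggrecan and versican or act on fibrils. Adamts1 read 4007 on the 7-day array, 6404 on array b and 5137 on array a, below both and -0.67 from array b. Adamts7 was opposed, at 1677 against 1068 on array b (0.64), but below the 2349 of array a. Adamts9 (-0.06), Adamts10 (-0.08), Adamts5 (-0.07) and Adamts4 (0.00) were level with array b. A second Adamts5 probe set gave -0.60, and Adamts10 turned to 0.43 with probe sets averaged.

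**Figure D3:**
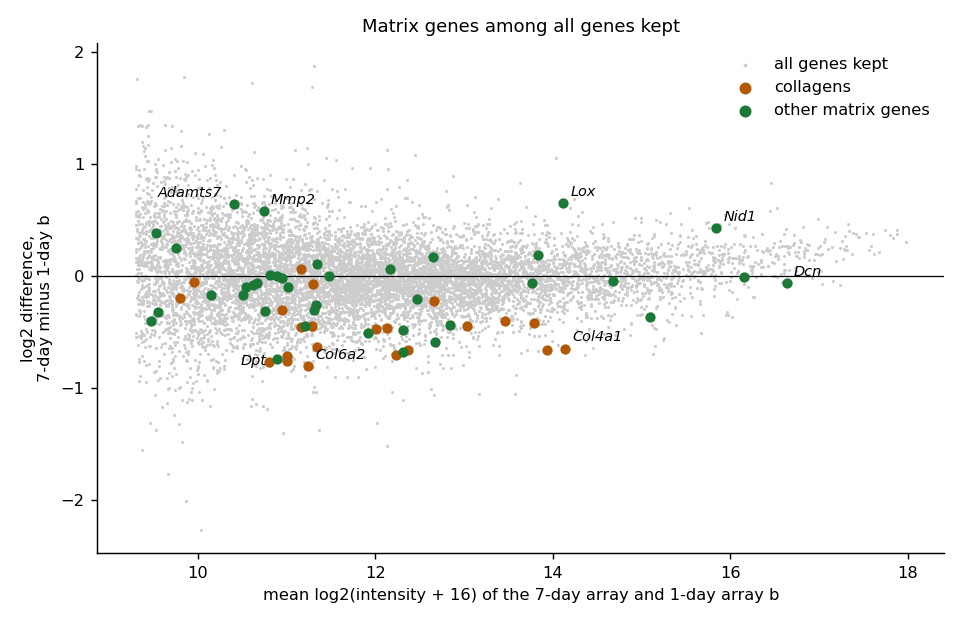
Log2 difference of the 7-day array minus 1-day array b against the mean log2 intensity of these arrays, for all 9398 genes kept (grey), collagens (orange) and other matrix genes (green). Collagens lie below 0 at nearly every intensity, and Lox, Mmp2, Adamts7 and Nid1 lie above.

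Most matrix genes were lower at every level of brightness. When all genes kept were cut into 3 equal classes, dimmest, middle and brightest, the matrix genes had medians of -0.10, -0.45 and -0.22, where all genes of those classes had 0.02, -0.05 and 0.00. With 23, 20 and 17 matrix genes in the classes, 17, 16 and 13 were lower, where 47.9%, 57.2% and 50.5% of all genes in those classes were. Against array a, by their brightest probe sets, 5 collagens were at least 2-fold higher on the 7-day array (Col1a2, Col3a1, Col5a1, Col4a2 and Col18a1), where 24.8% of all genes were. A further 6 were at least 2-fold lower (Col11a1, Col27a1, Col6a6, Col8a1, Col14a1 and Col16a1), where 13.6% of all genes were. With median centring these counts became 13 higher and 0 lower, where 63.8% and 0.543% of all genes were. The brightest collagens on array b, Col4a1 and Col7a1, were in neither set.

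Some genes had another probe set above the filter. Of 7 such collagen probe sets 6 were lower on the 7-day array (median -0.26), among them Col1a2 (-0.75), Col5a2 (-0.53), Col4a1 (-0.44), Col18a1 (-0.26), Col5a1 (-0.24) and Col14a1 (-0.06). The second probe set of Col1a1 was not (0.08). Of 15 such probe sets of other matrix genes 7 were lower and 8 higher. Over all 22 pairs 13 had the same sign, and the median gap between probe sets of a gene was 0.28. Against array a, the second probe sets of Col1a2 (0.43), Col18a1 (0.25) and Col5a1 (-0.998) did not repeat the 2-fold excess of the brightest ones. Those 2-fold differences from array a thus depend on the probe set. The second probe set of Col14a1 was again lower than on array a (-1.90). That of Col4a1 stood at 1.39, where the brightest stood at 0.49.

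**Figure D4:**
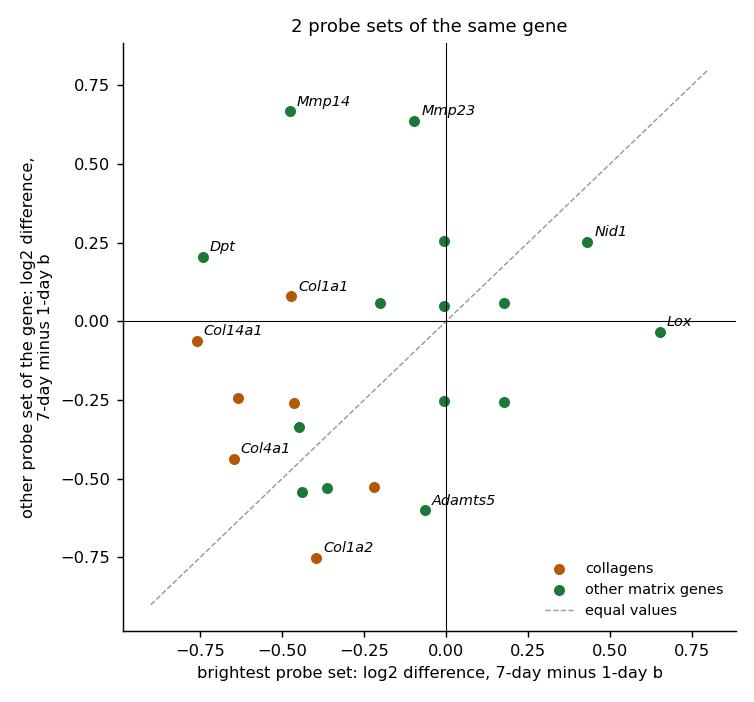
Log2 difference (7-day array minus 1-day array b) of the brightest probe set of a matrix gene (horizontal) and of its other probe sets above the filter (vertical), with collagens in orange and other genes in green. Most collagens lie at the lower left, below 0 on both axes, while Mmp14, Mmp23, Dpt, Lox and Col14a1 differ by over 0.6 between probe sets.

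The 38 genes below the filter read 11.8 to 784 on the 7-day array and 9.90 to 608 on 1-day array b, and 23 were higher and 15 lower, where 35.1% of all genes below the filter were lower. They include cartilage collagens (Col2a1, Col9a1 to Col9a3, Col10a1, Col11a2), the epithelial Col17a1, Lama1, Lama3 and Lamb3, most secreted metalloproteinases (Mmp3, Mmp7 to Mmp13) and Adamts6, Adamts8, Adamts12, Adamts15, Adamts16 and Adamts19. Of the 38, 15 were at least 2-fold from array b, where 41.4% of all genes below the filter were, a like share. The others were Col4a4, Col4a6, Col5a3, Col6a5, Col15a1, Col19a1, Col20a1, Col22a1 to Col26a1, Mmp16 and Mmp28.

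Genes that process and fold collagen lay nearer to array b than the collagens. Of 24 listed, 20 were on the array and 17 were kept, of which 13 were lower than on array b with a median of -0.06 and 2 at least 1.5-fold lower. The lowest were Plod2, a lysyl hydroxylase that prepares cross-links (618 on the 7-day array against 1072 and 1697 on arrays b and a), and Fkbp10, a collagen chaperone (1786 against 3044 and 1493). The highest were Pcolce (0.25), an enhancer of procollagen cutting, and P4ha2 (0.15), a prolyl hydroxylase subunit. The collagen chaperone gene Serpinh1 stood at -0.08.

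Other matrix proteins had 14 of 17 lower than on array b, where 51.9% of all genes were lower. Their median was -0.19, with Prelp (-0.67) and Fbln5 (-0.56) lowest and Hspg2 (0.12) and Smoc1 (0.11) highest. Genes of TGF-beta signalling, a known inducer of collagen genes, had 13 of 14 lower and a median of -0.17. Among them Tgfb1 read 2534 on the 7-day array against 3672 and 2341 on arrays b and a (-0.53), and Smad7, an inhibitor of the pathway, read 1926 against 3268 and 2526 (-0.76). Pdgfa stood at -0.04, and Ccn1, a matricellular protein gene, was opposed at 1604 against 813 and 2232 (0.97). Other proteases and inhibitors had 11 of 14 lower (median -0.25), with the collagen-cutting cathepsin gene Ctsk at -1.17, Serping1 at -0.82, Plat at 0.17 and Ctsb at 0.21. Matrix receptors had 10 of 20 lower (median 0.02, but -0.16 with median centring), with Sdc2 (-0.33) and Cd44 (-0.31) lowest and Sdc1 (0.34) and the collagen receptor Ddr2 (0.51) highest. Set against array a, where 43.7% of all genes were lower, these lists had 6 of 17, 6 of 14, 4 of 14 and 9 of 20 lower. In the same order, their medians from array a were 0.68, 0.09, 0.44 and 0.57. Collagen-processing genes had 6 of 17 lower than on array a, with a median of 0.26.

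Markers of cell types that the tissue could hold were read beside the collagens. Their counts and medians are against array b, where 51.9% of all genes were lower, unless array a is named. Of 8 fibroblast markers on the array that are not matrix members 5 were kept and all 5 were lower on the 7-day array (median -0.23), with a summed intensity of 32434 on the 7-day array against 38214 on array b and 23322 on array a. Pdgfra, a receptor of fibroblasts, stood at -0.48 and Thy1 at -0.16, and Fap, Gli1 and Fbln1 were below the filter. Mural cell markers had 9 of 12 lower (median -0.14, summed 53825 against 65957 and 30541), with Mcam at -0.70, Mylk at -0.36, Lmod1 at 0.14 and Kcnj8 at 0.25. Endothelial markers had 5 of 13 lower (median 0.09, but -0.09 with median centring, summed 69695 against 71569 and 56599), with Eng at -1.04, Flt1 at -0.35, Sox17 at 0.37 and Plvap at 0.43. Set against array a, where 43.7% of all genes were lower, 2 of 5 fibroblast, 3 of 12 mural and 3 of 13 endothelial markers were lower. In the same order, their medians from array a were 0.13, 0.90 and 0.52.

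White blood cell markers had 8 of 10 lower than on array b (median -0.28, summed 79175 against 89554 and 27437), with Cd163 and Fcer1g at -0.63 each, Mrc1 at 0.08 and Ptprc at 1.15. From array a their median was 0.82, with 1 of the 10 lower. Schwann cell markers had 3 of 6 lower (median -0.06), with Gfap at -0.61, Pmp22 at -0.16, Sox10 at 0.15 and S100b at 0.45. Chromaffin markers had 5 of 12 lower (median 0.11, but -0.14 with quantile normalisation, -0.07 with median centring and -0.06 with the intensity trend removed), with Gata3 at -0.88, Slc18a2 at -0.47, Chgb at 0.31 and Chga at 0.35. Adrenal cortex markers had 0 of 10 lower (median 0.37, summed 1654230 against 1268480 and 2129270), from Mrap (0.29) and Scarb1 (0.33) to Fdx1 (0.41) and Cyp11b1 (0.57). Their median fell to 0.18 with quantile normalisation, 0.19 with median centring and 0.18 with the intensity trend removed. The levels of these markers, and the beta-actin ratio of 8.87 on the 7-day array against 6.11 on array b, differed together with the collagens, while the same ratio for Gapdh was 1.87 on the 7-day array and 1.79 on array b (5.02 on array a). The part of the markers and of RNA quality in the collagen values was not tested.

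**Figure D5:**
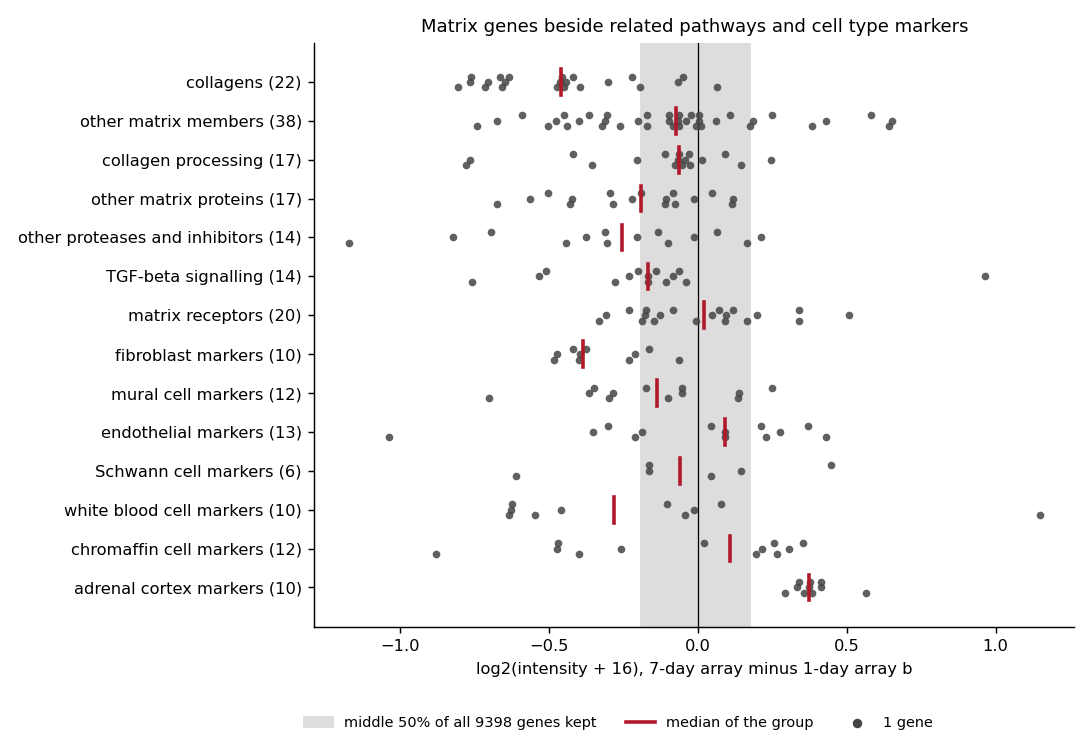
Log2 difference of the 7-day array minus 1-day array b for collagens, the other matrix genes, related pathways and cell type markers, 1 point per gene kept, with the number of genes in brackets. The red bar is the median and the grey band the middle 50% of all 9398 genes kept. Collagens (median -0.46) and fibroblast markers, 5 of 10 of which are matrix genes themselves, lie left of the band. The medians of white blood cell markers (-0.28) and of other proteases and inhibitors (-0.25) lie left of it too, and that of adrenal cortex markers (0.37) right.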

How the data were processed

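Rat RNA, by its labels from adrenal medulla, was read on 1-colour oligonucleotide arrays, 1 of 7 days and 2 of 1 day of cold, with groups and letters taken from the sample titles. The deposited table gives 1 linear intensity per probe set, which the authors had summarised and scaled. The 2% trimmed mean is 2500 on each array, so total signal was set equal and a difference in total RNA is not visible. The software is not given in the sources used here. Precision is limited by the number of arrays.

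Values were used as log2(intensity + 16), a scale that understates the change of dim genes. All 57 controls were removed. The 15521 probe sets at or above the median of the mean of the 7-day array and 1-day array b (intensity 614) were kept. Array a had no part in the filter. Of 31042 gene probe sets, 20826 had 1 symbol, 436 several and 9780 none. Of the first, 20758 were matched by Entrez identifier to RefSeq's GRCr8 gene table and took its symbol. Genes read as ADAMTS-like were not taken as members. The rule's mean was taken on the log2 scale, and 0 members changed probe set with the linear mean.

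The two-sided test, limma with eBayes and a trend on intensity, used all 3 arrays with p-values adjusted by Benjamini-Hochberg (threshold 0.05), and assumes that the lone 7-day array varies like the 1-day arrays. Members and lists were chosen with earlier results of these data known. Named genes were all kept members at least 1.5-fold from array b, a fixed list of core members, and the 2 highest and 2 lowest of each list. The other kept members were added after their values were seen. The limma fit and the rule of 2-fold beyond both 1-day arrays were tested on simulated data. R 4.3.3, limma 3.58.1, Python 3.11.15 and matplotlib 3.10.9 were used.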

Additional observations from a re-analysis of the deposited data

How the results depend on the processing

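No paired analysis was possible because the groups share only 1 replicate letter. Limma without a 1-day array has no residual degree of freedom and was not run. In the other 9 limma settings 0 probe sets were called. The members' median against array b was negative in every setting, from -0.42 to -0.09. Against array a it was -0.10, but 0.38 with quantile normalisation and 1.11 with median centring, where the median of all genes was 0.35 and 1.39. The count of members at least 2-fold from array b, 0 as reported, became 15 without a filter (15.3%, against 14.7% of all genes), 3 when all probe sets of a gene were averaged (5% against 2.67%) and 26 without array b (43.3% against 38.3%). The count at least 2-fold beyond both 1-day arrays became 6 and 3 under the first 2 of these (6.12% against 4.83% of all genes, and 5% against 0.734%), and ranged from 0 to 26 with either 1-day array left out. The count at least 1.5-fold from array b, 14 as reported and an addition after the data were seen, became 7 with quantile normalisation (11.7%, against 3.97% of all genes), 22 with median centring (36.7% against 10.6%), 38 without a filter (38.8% against 25.4%), 7 with the 75th percentile filter (25.9% against 2.68%), 9 with probe sets averaged (15% against 11.1%) and 37 without array b (61.7% against 60.1%). Of 27 members at the 75th percentile filter 21 were lower (77.8%, against 53.8% of all genes). Members beyond both 1-day arrays, 29 as reported, numbered 17 with median centring (28.3%, against 28.0% of all genes), 47 without a filter (48.0% against 48.5%) and 11 at the 75th percentile (40.7% against 49.9%), and the count has no meaning with 1 array. The sign of single members against array b turned for 1 with quantile normalisation, 7 with median centring, 10 with probe sets averaged and 31 of 60 against array a, and for 0 with the other pseudocounts and the trend removed. Counting the ADAMTS-like genes, an addition after the data were seen, gave 48 of 62 lower. The cause of these changes was not tested beyond the settings' own construction. Dim probe sets limit what the 38 genes below the filter can show.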
